A study of Mus musculus with 3 samples.

Results

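The genes described here encode 6 microtubule-associated proteins (Map1a, Map1b, Map2, Map4, Mapt and Dcx) and 4 stathmins (Stmn1, Stmn2, Stmn3 and Stmn4). They were chosen by name, and all 10 had a value among the 18130 protein-coding genes of the table. RNA was taken from wild-type mouse cortical neurons under the control condition, in 3 libraries named replicates 1 to 3 that form 1 group. The series title sets them in a study of DNA supercoiling and topoisomerases in the neuronal genome. The age of the animals, the days in culture and whether the libraries came from separate cultures are not given in the labels, so the spread between libraries may be technical. With 1 group there was no condition to compare, and comparisons were made between genes inside each library.

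Microtubules are polymers of tubulin that give axons and dendrites their shape and serve as tracks for transport. Microtubule-associated proteins (MAPs) bind along the polymer and stabilise, space or bundle it, and they are sorted in mature neurons, with MAP2 in dendrites and tau, the product of Mapt, mainly in axons. Stathmins act the other way, since they hold free tubulin dimers and promote disassembly until kinases phosphorylate them.

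Levels are in TPM, a relative transcript abundance scaled by transcript length and by the library's total. The value of a gene was that of 1 coding transcript, the one with the highest product of mean TPM and exonic length, which is also the one with the most reads. TPM were scaled over all 84660 transcript models of a library, and models of 1 gene share reads, so these values are lower than TPM scaled over genes. Whole reads could be recovered from TPM and transcript length for all 10 genes. For Map1b and Map4 the length was itself chosen as one that gives whole reads, so those genes are no check of the recovery. The values used for coding genes held 34450769, 30443084 and 29939052 reads in replicates 1, 2 and 3. A count of 3 reads per kb of transcript corresponded to 0.0585, 0.0694 and 0.0657 TPM, far below the value used for each of the 10 genes. Errors are SD over the 3 libraries.

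The label of the samples was set against marker genes. All 14 neuronal markers outside the 10 genes were expressed at a mean of at least 1 TPM, from Elavl4 at 19.4 ± 4.21 TPM to Gap43 at 458 ± 8.95 TPM (SD, n = 3). Their sum was 2552, 2641 and 2337 TPM in replicates 1, 2 and 3. Astrocyte markers were also present, with 9 of 10 expressed and sums of 432, 459 and 525 TPM, led by Slc1a3 at 184 ± 19.1 TPM and with Gjb6 lowest at 0.33 ± 0.05 TPM. For the oligodendrocyte lineage 7 of 10 were expressed, with sums of 68.0, 50.6 and 84.8 TPM, between Olig1 at 34.4 ± 2.91 TPM and Mobp at 0.018 ± 0.020 TPM. Of 13 progenitor and cycling genes 11 were expressed, with sums of 90.9, 103 and 100.1 TPM, between Vim at 44.8 ± 6.78 TPM and Eomes at 0.013 ± 0.017 TPM. Microglial markers summed to between 1.32 and 2.65 TPM with 1 of 7 expressed (Aif1), and Tmem119 was listed at 0. Endothelial and fibroblast markers summed to between 2.97 and 4.56 TPM with 1 of 6 expressed (Dcn), and Cldn5 was listed at 0. In bulk RNA, fewer cells of a type and less RNA per cell cannot be told apart.

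All 10 genes were expressed at a mean of at least 1 TPM, as were 61.8% of coding genes. A mean of at least 100 TPM was reached by 7 of the 10, against 1.65% of coding genes. Together the 10 genes took up 0.86 ± 0.01% of the TPM and 0.91 ± 0.04% of the reads of coding genes (n = 3). The 4 stathmins summed to 1437 ± 22.8 TPM and the 6 MAPs to 521 ± 48.2 TPM. The median of the stathmins was 311 ± 8.01 TPM and that of the MAPs 70.8 ± 9.65 TPM, while the median of all coding genes was 2.90 TPM and that of expressed ones 8.22 TPM. The stathmin median exceeded the MAP median in 3 of 3 libraries, by 2.18 ± 0.20 on the log2(TPM + 0.1) scale (two-sided exact sign-flip permutation test p = 0.25, adjusted p = 0.30 over 19 comparisons). By reads, which are not scaled by transcript length, stathmins held 37.5 ± 2.0% of the total of the 10 genes and MAPs the larger share.

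**Figure D1:**
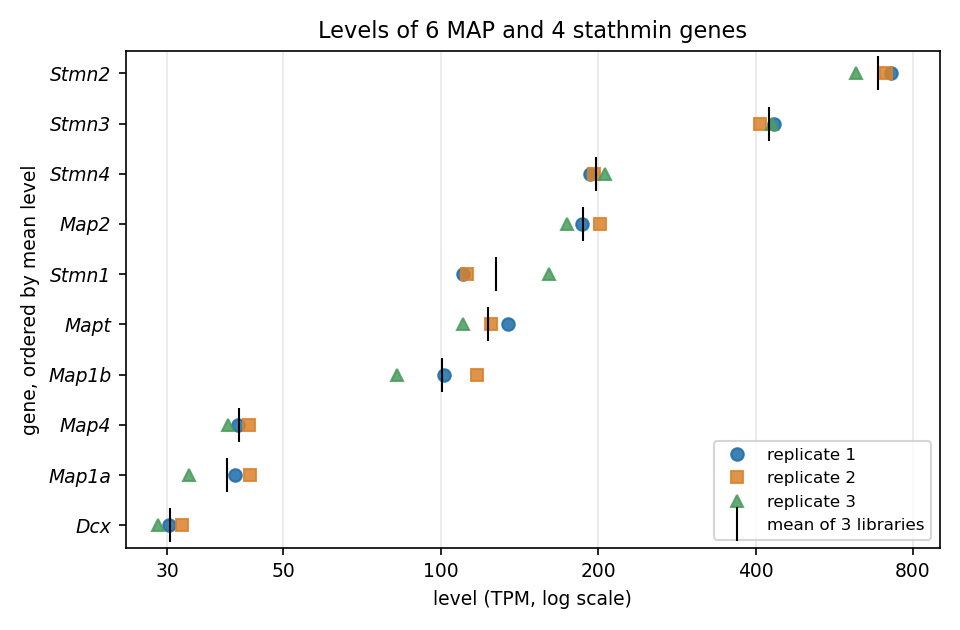
Level of each gene in TPM (horizontal log axis) in replicates 1, 2 and 3 (circle, square, triangle), with the mean of the 3 libraries as a vertical bar. Stmn2 was highest at 624 to 727 TPM and Dcx lowest at 28.8 to 32.0 TPM, and replicate 3 lay lowest in 7 of the 10 genes but highest for Stmn1.

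Among the stathmins, Stmn2, also called SCG10 and known from growth cones and regenerating axons, had the highest level of the 10 genes and rank 11 among coding genes. It stood at 727 TPM in replicate 1, 711 TPM in replicate 2 and 624 TPM in replicate 3, with a mean of 687 ± 55.6 TPM (n = 3) from between 59066 and 77263 reads. Replicates 1 and 2 lay close together and replicate 3 below them. Stmn3, a neuronal relative also called SCLIP, followed at rank 29, with 433, 408 and 430 TPM in replicates 1 to 3 and a mean of 424 ± 13.6 TPM. Its coefficient of variation, 3.20%, was the smallest of the 10, against a median of 7.89% over 11198 expressed nuclear coding genes. Stmn4, known as RB3, had 193, 196 and 206 TPM and a mean of 198 ± 6.71 TPM at rank 97. In this gene replicate 3 was the highest library, by a small margin.

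The order Stmn2, Stmn3, Stmn4 held in 3 of 3 libraries. Stmn2 exceeded Stmn3 by 0.69 ± 0.14 on the log2 scale, a ratio of 1.62 ± 0.15, and Stmn3 exceeded Stmn4 by 1.10 ± 0.06, a ratio of 2.14 ± 0.09. Both differences exceeded their SD over the libraries (exact sign-flip p = 0.25 and adjusted p = 0.30 for each). With 3 libraries 0.25 is the smallest p this two-sided test can give, so none of the 19 differences could reach 0.05.

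Stmn1, or oncoprotein 18, is the founding stathmin and is expressed in dividing cells as well as in neurons. Its level was 110 TPM in replicate 1, 112 TPM in replicate 2 and 161 TPM in replicate 3, with a mean of 128 ± 28.6 TPM at rank 204. Replicates 1 and 2 agreed within a few percent and replicate 3 stood well above both. The difference of replicate 3 from the mean of the others was 0.53 on the log2 scale, above 98.8% of expressed nuclear coding genes. The coefficient of variation, 22.4%, was the largest of the 10. Progenitor and cycling genes had their highest sum in replicate 2, where Vim alone stood at 52.4 TPM. Their median, 2.80, 3.18 and 3.72 TPM in replicates 1 to 3, was highest in replicate 3. Of the 11 expressed genes of this list, however, only 4 were highest in replicate 3, against 31.4% of expressed nuclear coding genes. Astrocyte and oligodendrocyte lineage markers both had their highest sums in replicate 3. The part of these cell types in the Stmn1 values was not tested.

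The level of Stmn1 is also the least certain of the 10, because the mouse genome holds a near-identical copy. Of 50-base stretches taken every 10 bases along the Stmn1 transcript used, 44.6% were found nowhere else in the genome, against 99.4% for Dcx and 100% for the other 8 genes. In the other coding models of Stmn1 the share was lower, from 14.5% to 34.9%. The copy lies on the minus strand of chr4:69925201-69926170 (GRCm38), and the part at chr4:69925630-69926079 is annotated as the processed pseudogene Gm11223. The sequence of the copy matched 970 bases of a 1060-base Stmn1 transcript at 99.5% identity, with 5 mismatches. All 447 coding bases aligned, with 1 mismatch among them. The stretch around that base shows how little separates the loci. It lies at chr4:134472851-134472931 on the plus strand in Stmn1 and at chr4:69925766-69925846 on the minus strand in Gm11223 (GRCm38, 5′ to 3′), and the capital letter marks the base that differs.
Stmn1: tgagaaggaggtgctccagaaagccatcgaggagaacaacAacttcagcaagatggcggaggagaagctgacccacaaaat
Gm11223: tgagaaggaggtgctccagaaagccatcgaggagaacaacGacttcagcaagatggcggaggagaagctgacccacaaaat
Gm11223 itself, annotated over only part of the copy, was listed at 5.90, 2.47 and 3.02 TPM in replicates 1, 2 and 3, and thus not highest in replicate 3. How reads matching both places were counted is not given in the sources used here. The choice of transcript mattered more for Stmn1 than for the other stathmins. A 474-base coding model held nearly as many reads, 5384, 4645 and 7029, as the 967-base model used, with 5463, 4697 and 7101. Being shorter, it was listed at 222, 227 and 325 TPM. The 1060-base coding model held 5401, 4636 and 7031 reads, nearly the same as the 474-base model although it is longer. Whether reads in the sequence shared with Gm11223 were left out of the counts was not tested. Replicate 3 was highest in each of the 4 coding models.

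Compared with this level, Stmn4 exceeded Stmn1 by 0.66 ± 0.26, Stmn3 by 1.75 ± 0.29 and Stmn2 by 2.45 ± 0.43 on the log2 scale, in 3 of 3 libraries each (exact sign-flip p = 0.25, adjusted p = 0.30 for each). The difference from Stmn4 turned to -0.36 when the 474-base model stood for Stmn1, so the order of these genes is not settled by the data. With that model Stmn3 exceeded Stmn1 by 0.74 and Stmn2 exceeded Stmn1 by 1.43, so the size of these differences also rests on the transcript chosen.

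Among the MAPs, Map2, the dendritic marker, had the highest level. It stood at 186 TPM in replicate 1, 202 TPM in replicate 2 and 174 TPM in replicate 3, with a mean of 187 ± 13.8 TPM (n = 3) at rank 106. Mapt, which encodes tau, had 134, 125 and 110 TPM and a mean of 123 ± 12.1 TPM at rank 221. The ranges of Map2 and Mapt did not overlap, and Map2 exceeded Mapt by 0.61 ± 0.12 on the log2 scale, a ratio of 1.53 ± 0.12, in 3 of 3 libraries (exact sign-flip p = 0.25, adjusted p = 0.30). That order rests on the transcript chosen, since with the coding model of highest TPM in each gene the difference was -0.02.

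Map1b, a large MAP that appears early in growing axons, had 102, 117 and 82.6 TPM in replicates 1 to 3 and a mean of 100.4 ± 17.3 TPM. Its relative Map1a, which is known to rise as neurons mature, had 40.5, 43.3 and 33.1 TPM and a mean of 39.0 ± 5.27 TPM. Both were highest in replicate 2 and lowest in replicate 3. Map1b exceeded Map1a by 1.36 ± 0.07, a ratio of 2.57 ± 0.12, with a spread much smaller than that of either level (3 of 3 libraries, exact sign-flip p = 0.25, adjusted p = 0.30). The transcripts used are alike in length, 11852 bases for Map1b and 11825 for Map1a.

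Map4, the MAP found in many tissues outside the brain too, had 41.0, 43.1 and 39.3 TPM and a mean of 41.1 ± 1.91 TPM. Dcx, or doublecortin, is known from migrating and newly formed neurons, and it had 30.3, 32.0 and 28.8 TPM with a mean of 30.4 ± 1.58 TPM. It was the lowest of the 10, yet still higher than 90.9% of coding genes. Map2 exceeded Map4 by 2.18 ± 0.04 and Dcx by 2.62 ± 0.03, and these were the steadiest differences of the 19. Mapt exceeded Map4 by 1.58 ± 0.12 and Map2 exceeded Map1b by 0.91 ± 0.15. Each of these 4 differences had 1 sign in 3 of 3 libraries (exact sign-flip p = 0.25, adjusted p = 0.30).

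In the order of means, 3 pairs of neighbours did not differ beyond their spread. Stmn4 exceeded Map2 in 2 of 3 libraries, by 0.08 ± 0.14 (exact sign-flip p = 0.50, adjusted p = 0.53). Stmn1 and Mapt differed by 0.04 ± 0.45 (exact sign-flip p = 1.0, adjusted p = 1.0), where replicate 3 alone put Stmn1 higher and the difference without it was -0.22. Map4 and Map1a differed by 0.09 ± 0.14 (exact sign-flip p = 0.50, adjusted p = 0.53). The other neighbours kept their order in 3 of 3 libraries, with Map2 over Stmn1 by 0.57 ± 0.40, Mapt over Map1b by 0.30 ± 0.18, Map1b over Map4 by 1.27 ± 0.19 and Map1a over Dcx by 0.35 ± 0.13. With the 474-base model for Stmn1 the first of these turned to -0.44. Summing over all models of a gene, which counts shared reads repeatedly, turned Map1b minus Map4 to -1.18, Map1b minus Map1a to -0.31, Stmn3 minus Stmn4 to -1.97 and Stmn3 minus Stmn1 to -0.61.

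The genes differ widely in structure. Map2 spans 267 kb at chr1:66175273-66442583 (GRCm38, plus strand), and its used transcript has 14 exons and 5440 bases, of which 1401 are coding. Map4 spans 152 kb at chr9:109931460-110083955, Mapt 101 kb at chr11:104231390-104332090, Map1b 95.1 kb at chr13:99421446-99516540 and Dcx 77.5 kb at chrX:143855842-143933311. Map1a spans 21.2 kb at chr2:121289600-121310832, although its coding sequence, 9042 bases, is the longest of the 10. Stathmin genes other than Stmn2 are more compact, with 17.4 kb for Stmn4 at chr14:66344296-66361680, 8.04 kb for Stmn3 at chr2:181306459-181314500 and 5.52 kb for Stmn1 at chr4:134468320-134473843. Stmn2 spans 52.2 kb (chr3:8509360-8561606), the longest of the stathmins, and had the highest level of the 10. The coding sequences of the 4 stathmins are similar, from 447 to 609 bases.

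The 10 genes had 72 transcript models in the table, from 1 each for Map1b and Stmn3 to 24 for Map2. Models of a gene share reads, so their values are not isoform levels. Reads that reach past the end of a short model still count for it, where counting takes any overlap, and the overlap required is not given in the sources used here.

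**Figure D2:**
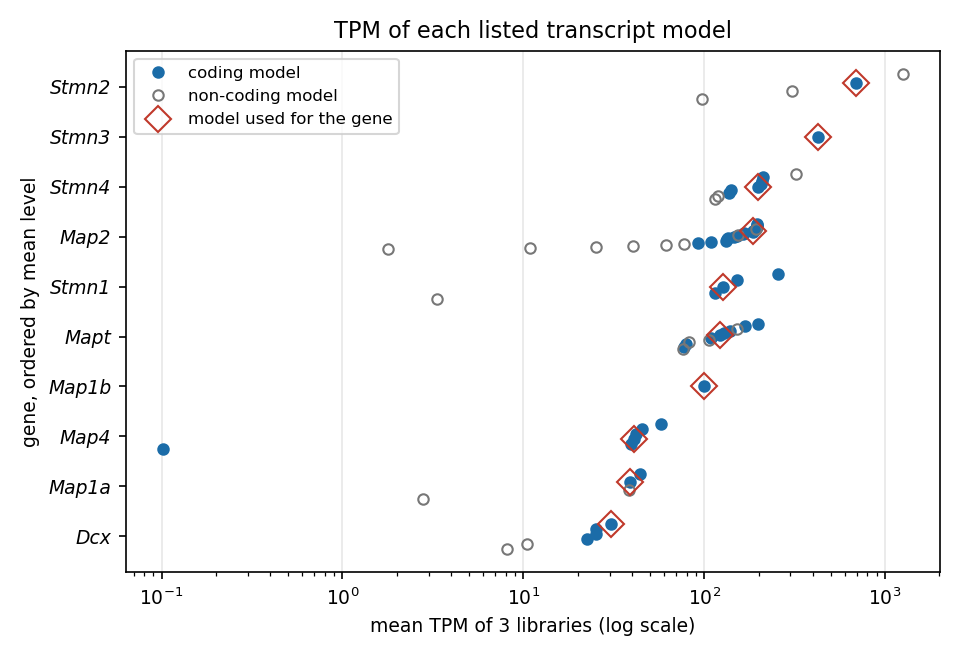
Mean TPM of 3 libraries (horizontal log axis) of each listed transcript model, with coding models filled, non-coding models open and the model used for each gene in a red diamond. Coding models of Map2 ran from 92.1 to 196 TPM and those of Mapt from 77.5 to 199 TPM, while 1 coding model of Map4 stood alone at 0.10 TPM.

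Map2 makes a short form and a high-molecular-weight form that differ mainly by a very large internal exon. That exon, of 3741 bases at chr1:66412407-66416147 and wholly coding, is part of a 6258-base model listed at 135, 137 and 134 TPM in replicates 1 to 3. The used model lacks it, and also the coding exons of 207 and 135 bases that follow it, and stood at 186, 202 and 174 TPM. The model with the large exon varied little between libraries, 135 ± 1.59 TPM (n = 3). A further model that lies mostly in the large exon was listed at 145 ± 1.60 TPM. Of the models nested in the 6258-base model, 3 allowed the reads per kb of its added bases to be compared with their own. The added bases stood at 65.2 ± 3.6%, 79.2 ± 5.9% and 101 ± 3.5% of the nested model, the last of which itself holds part of the large exon. The large exon was thus covered by reads. The coding exons of the used model are all shared with the 6258-base model, so how much each form contributed could not be derived from these values.

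Mapt has a large exon too, known from the big tau form of peripheral neurons. A 2202-base model with that exon, 711 bases at chr11:104298546-104299256, and with a further 198-base exon held 9169, 7261 and 8060 reads in replicates 1 to 3. A 1362-base model that lacks both exons held 9265, 7348 and 8159 reads. The model with both exons thus held slightly fewer reads than the one without them in each library. The models are not nested, since the shorter one also holds bases at both ends that the longer one lacks. The reads of the large exon itself were therefore not derived.

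For Map4, 5 of 6 coding models lay between 39.5 and 57.7 TPM. The remaining model had 16, 15 and 14 reads, or 0.10 ± 0.007 TPM. Its length in the deposited table, found from the values, was 3165 bases against 4322 in the annotation used here, so its exons are not described. The used transcript of Dcx, with 9074 bases, held 14084, 12554 and 11957 reads, and coding models of 4095, 3120 and 1333 bases that end earlier held 5203, 3941 and 1534 reads in replicate 1. Most Dcx reads therefore fell in the part downstream of where the shorter models end. A 308-base non-coding model at the end of Stmn2 was listed at 1243, 1293 and 1224 TPM, above the full transcript in each library.

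The libraries differed in a way shared by most of the 10 genes. Replicate 3 was the lowest library for 7 of the 10 (Map1a, Map1b, Map2, Map4, Mapt, Dcx and Stmn2), against 41.0% of expressed nuclear coding genes. In the classes of transcript length that hold the MAPs this share was higher. It was 47.3% at 4 to 6 kb, 53.6% at 6 to 8 kb and 58.6% over 8 kb. Replicate 1 was lowest for 2, against 33.6%, and replicate 2 for 1, against 25.4%. The highest library was replicate 2 for 5 of them, against 40.4%, replicate 1 for 3, against 28.2%, and replicate 3 for 2, against 31.4%. All 6 MAPs were lowest in replicate 3, by between 0.10 (Map4) and 0.40 (Map1b) below the mean of the other libraries on the log2 scale. The stathmins were split, with Stmn2 at -0.20, Stmn3 at 0.03, Stmn4 at 0.08 and Stmn1 at 0.53. Of the neuronal markers outside the 10 genes, 11 of 14 were also lowest in replicate 3.

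Transcript length moved with the library differences. Over 11198 expressed genes, the difference of replicate 3 from the mean of the others had a median of 0.00 for transcripts under 1 kb and -0.13 for those over 8 kb, and Spearman's rho with length was -0.21. The difference between replicates 1 and 2 went from 0.15 to -0.17 over the same classes, with rho = -0.43. These are correlations across genes within the same 3 libraries, and genes are not independent replicates. The MAP transcripts used are all over 5 kb and 3 of the 4 stathmin transcripts under 2 kb, so MAP and stathmin values sit at opposite ends of this trend. Against the median of its own length class, Map1b was still lower in replicate 3 by 0.27, Map1a by 0.20, Mapt by 0.18, Map2 by 0.10 and Stmn2 by 0.21. Map4 at -0.01, Dcx at 0.02 and Stmn3 at 0.01 lay at their class medians, and Stmn1 stayed at 0.53 above its own. With levels centred in this way 6 of the 10 genes were lowest in replicate 3. The share of all expressed genes lowest there after centring was not computed, so this count has no background to be read against.

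**Figure D3:**
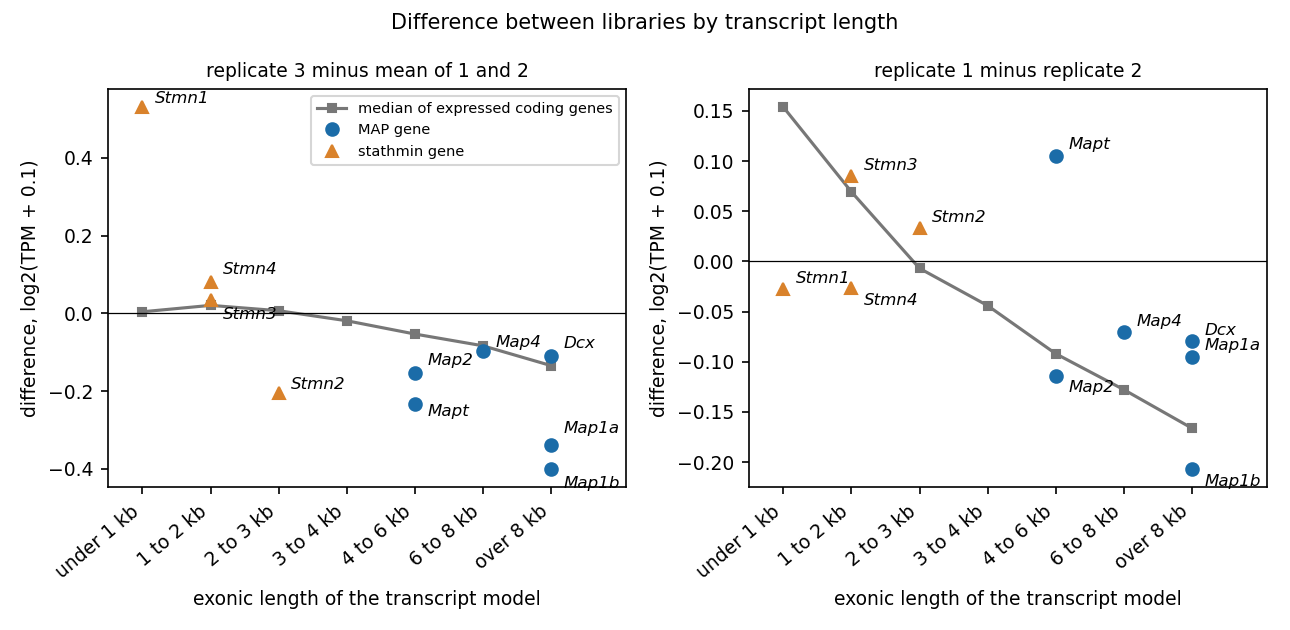
Difference in log2(TPM + 0.1) between libraries (vertical axes; left, replicate 3 minus the mean of 1 and 2; right, replicate 1 minus replicate 2) by class of transcript length, with MAP genes as circles, stathmin genes as triangles and the median of expressed coding genes as grey squares. The medians fell with each class from 0.15 to -0.17 at right and from 0.02 at 1 to 2 kb to -0.13 over 8 kb at left, where Stmn1 stood apart at 0.53.

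Within genes the same libraries ranked differently along the transcript. A 293-base coding model of Mapt that covers its first exons was listed at 186, 188 and 223 TPM, highest in replicate 3, whereas the full transcript was lowest there. A 546-base model of the first exons of Map2 had 86.7, 88.0 and 102 TPM, again highest in replicate 3. In Dcx the 1333-base model had 22.5, 21.1 and 23.7 TPM, and the 7741 bases added by the full transcript stood at 31.6, 33.9 and 29.7 TPM. In these 3 genes replicate 3 was highest at the 5′ side and lowest over the whole transcript, but Stmn4 went the opposite way. In Stmn4 a 405-base model of the first exons had 124, 121 and 97.8 TPM and a 422-base coding model 149, 144 and 129 TPM, both lowest in replicate 3, where the full transcript was highest. A 3517-base model at the 5′ side of the Map4 gene had 60.3, 62.7 and 50.2 TPM, lower in replicate 3 by 0.29 on the log2 scale against 0.10 for the full transcript. It has 4 exons and 297 coding bases, and how much of it lies in the full transcript was not derived. It therefore does not show how the libraries ranked along that transcript. Of 305 genes with such nested models differing by at least 500 bases at the 3′ side, 77.0% had a lower value of the added bases than of the inner model in replicate 3 relative to the others, with a median difference of -0.14 against -0.26 for Dcx. Whether RNA integrity or fragment length differed between the libraries was not tested.

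Other regulators of microtubules give a scale for these levels. Of 83 such genes with a value in 5 lists, 76 were expressed at a mean of at least 1 TPM, and their median was 11.8 TPM. None reached 100 TPM, and 7 of the 10 genes exceeded the highest of the 83, Mapre2 at 91.7 ± 5.03 TPM, which encodes an end-binding protein of growing microtubules. Among 15 further MAPs 14 were expressed, with a median of 8.71 TPM, led by the doublecortin-like kinase gene Dclk1 at 76.7 ± 10.4 TPM, Map9 at 41.8 ± 3.91 TPM and Map7d1, of a family that recruits kinesin, at 38.7 ± 1.24 TPM. Map7d3 was at 0.005 ± 0.004 TPM. Among 21 end-binding and spectraplakin genes all were expressed, with a median of 15.2 TPM. After Mapre2 these were led by Clip3 at 90.3 ± 5.76 TPM and Clasp2, which stabilises microtubule ends, at 56.0 ± 6.70 TPM, and Nav2 was lowest at 3.35 ± 0.57 TPM.

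Genes that sever or depolymerise microtubules were lower. Of 12 with a value 8 were expressed, and the median was 2.88 TPM. Kif2a, a depolymerising kinesin of neurons, had 33.6 ± 3.07 TPM, the severing enzyme gene Spast 16.5 ± 1.16 TPM and the katanin-like gene Katnal1 11.3 ± 0.74 TPM, while Fign was at 0.061 ± 0.013 TPM. By contrast, each of the 4 stathmin genes, whose products also favour disassembly, exceeded 100 TPM. All 17 genes for kinases and kinase activators that act on MAPs or stathmins were expressed, with a median of 30.9 TPM. They ran from Brsk1 at 52.5 ± 2.45 TPM, Mapk10, which encodes the neuronal kinase JNK3, at 51.8 ± 4.84 TPM, and Cdk5r2, an activator of CDK5, at 50.5 ± 3.08 TPM down to the tau tubulin kinase gene Ttbk2 at 7.27 ± 1.15 TPM. Of 18 tubulin-modifying genes 16 were expressed, with a median of 9.58 TPM. The highest were the deglutamylase gene Agtpbp1 at 37.1 ± 3.05 TPM, the deacetylase gene Sirt2 at 29.3 ± 3.36 TPM and the tubulin acetyltransferase gene Atat1 at 23.8 ± 3.29 TPM, and Agbl2 was lowest at 0.031 ± 0.015 TPM.

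**Figure D4:**
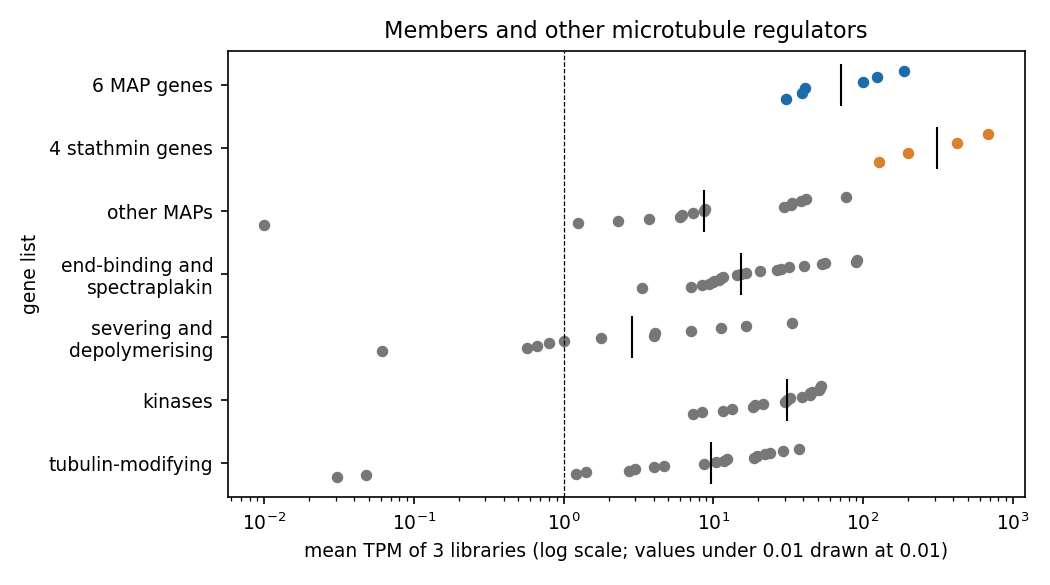
Mean TPM of 3 libraries (horizontal log axis; values under 0.01 drawn at 0.01) of the 6 MAP genes, the 4 stathmin genes and 5 lists of other microtubule regulators, with the median of each group as a vertical bar and 1 TPM as a dashed line. The MAP and stathmin medians, 70.8 and 311 TPM, lie to the right of the 5 list medians, which run from 2.88 to 30.9 TPM.

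For each gene, the coding gene with the most similar values was the one whose largest log2 difference over the 3 libraries was smallest. For Dcx it was Ppp2r5c, within 0.007 in each library, and 355 genes came within 0.25. For Stmn2 it was Snurf, within 0.11, with 4 genes within 0.25, the fewest of the 10. Mapt was closest to Kif1a (0.05), Map1b to Cltc (0.08), Map1a to Atl1 (0.03), Map2 to Oxct1 (0.07) and Map4 to Chst1 (0.03). Stmn1 was closest to Uqcrb (0.09), at 107, 116 and 151 TPM in replicates 1 to 3. A gene chosen for being this close to Stmn1 in each library has to be highest in replicate 3 too, so that is no separate result. Stmn3 was closest to Nsg2 (0.11) and Stmn4 to Hnrnpa2b1 (0.08).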

How the data were processed

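Per the labels' protocols, total RNA was extracted with an RNeasy kit and libraries were made with a KAPA RNA HyperPrep kit. Build mm10 is given in the submitters' processing notes, as are Subread 1.4.6 with featureCounts, STAR 2.5.3a and FastQC 0.11.2. A single deposited table holds TPM, as the authors scaled them, for 84660 transcript models, which its name assigns to GENCODE M4. How reads with several matches were counted is not given in the sources used here.

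GENCODE M21 on GRCm38 served as annotation, and 98.1% of the identifiers, versions removed, were found in it. TPM times exonic length was a whole number of reads, within 0.01 of a read in all 3 libraries, for 89.9% of matched transcripts above 0. For 7 of the 72 models of the 10 genes, 1 of Map1b and 6 of Map4, the length was found from the values instead. Of other genes' transcripts lying inside exons of expressed coding genes, 9 on the opposite strand had a median 0.13% of the host's TPM and 8 on the same strand 38.5%. Overlaps with genes of the opposite strand covered 2.30% of the Map1a transcript (Ppip5k1) and 1.19% of the Map2 transcript (Gm10558, at most 0.012 TPM). Across coding genes the libraries had Spearman correlations of 0.992 to 0.993, and no columns were identical.

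Differences were taken inside each library on log2(TPM + 0.1), a scale that understates differences of low genes, and tested with two-sided exact sign-flip permutation tests, adjusted by Benjamini-Hochberg over 19 comparisons. Alternatives were pseudocounts of 1 and 0.01, other transcripts or their sum, rescaling to nuclear coding genes, other minimum levels, and leaving out each library. The Stmn1 transcript of highest TPM and centring on length classes were added after the data were seen. Read recovery and the tests were checked on simulated data.

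The 10 genes, the lists and the tests were chosen with earlier results of these data known. Named are the 10 genes, the 3 highest genes and the lowest of each regulator list, the highest and lowest of each marker list, the gene of most similar values to each of the 10, and genes overlapping or copying them. Python 3.11.15, numpy 2.4.6, pandas 2.3.3, numba 0.67.0 and matplotlib 3.10.9 were used.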

Additional observations from a re-analysis of the deposited data

How the results depend on the processing

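Among the values of the comparisons and counts under the alternatives, 12 changed sign and 192 were classed as keeping their direction. Many of the 192 could not change, so their number does not measure robustness. Rescaling nearly cancels in differences inside a library, and another Stmn1 transcript leaves pairs without Stmn1 as they were. Counts of expressed genes that moved with the minimum level are also among the 192. Summing TPM over all transcripts of a gene, which counts shared reads repeatedly, gave -0.31 for Map1b minus Map1a, -0.61 for Stmn3 minus Stmn1, -1.97 for Stmn3 minus Stmn4, -0.92 for Stmn4 minus Map2, -1.16 for Stmn1 minus Mapt and -1.18 for Map1b minus Map4. The coding transcript of highest TPM gave -0.019 for Map2 minus Mapt, -0.27 for Stmn4 minus Stmn1 and -0.37 for Map2 minus Stmn1. Using it for Stmn1 alone gave -0.36 for Stmn4 minus Stmn1 and -0.44 for Map2 minus Stmn1. Leaving out each replicate, Stmn1 minus Mapt ran from -0.22 (without replicate 3) to 0.20, and the other pairs kept their sign, with the stathmin minus MAP median between 2.08 and 2.27. Pseudocounts reversed no difference. Rescaling multiplies every gene of a library by the same factor, so it could not be expected to reverse a difference taken inside a library. The cause of the reversals was not tested beyond the transcripts used. The count of genes lowest in replicate 3 was 7 after rescaling, 6 with the transcript of highest TPM and 6 after length centring. For these settings the share of all expressed genes was not computed. With a minimum of 0.5 or 2 TPM, 11 or 6 severing and depolymerising genes were expressed. No paired analysis was possible because the libraries form 1 group, so no groups share replicate numbers, and the differences between genes were already taken inside each library. Neither the counting of reads with several matches nor the independence of the libraries could be read from the sources, and 3 libraries limit every p to 0.25 or more.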
